A study of Saccharomyces cerevisiae with 6 samples.

Results

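The 2-micron plasmid is a circular DNA element that lives in the nucleus of most Saccharomyces cerevisiae strains, in many copies and with no known benefit to the host. Its products keep it in the cell. Rep1 and Rep2 bind the plasmid and divide it between mother and daughter cells, and together they also repress plasmid promoters. Flp1 is a site-specific recombinase that inverts part of the plasmid and so allows its copy number to be raised.

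The plasmid genes are the 4 gene models placed on the 2-micron plasmid, selected by their systematic names, out of 5625 gene models in the deposited table. The 3 reported here are FLP1 (R0010W), REP1 (R0020C) and REP2 (R0040C). On the plasmid sequence of the CEN.PK113-7D strain, whose build is unnamed in the sources used here, FLP1 spans bases 252 to 1523 on the plus strand, a model of 1272 bases or 423 codons before the stop. REP1 spans 1887 to 3008 on the minus strand (373 codons) and REP2 spans 5308 to 6198 on the minus strand (296 codons). FLP1 and REP1 therefore point towards each other, with 363 bases between their ends.

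Polyadenylated RNA was sequenced from 2 aerobic cultures of each of 3 strains (in bioreactors, as the labels state for IMX605 and IMX606), named here by the library codes in the table. IMX605 (R12 and R7) carries its glycolytic genes at a single locus on chromosome V, and IMX606 (R13 and R8) carries them at a single locus on chromosome IX. IMX372 (DSE001 and DSE002), labelled MG, has its major glycolytic paralogs at their native loci. The labels describe duplicate cultures as biological duplicates, give no genotype beyond the gene location, and do not mention the plasmid. They also tie both IMX372 libraries to sample records of an earlier deposit, so in both comparisons with IMX372 the strain and the library set cannot be told apart. The library codes of IMX605 and IMX606 have the same form, which does not show that these libraries were prepared or sequenced together. The libraries held 18754741 to 21370278 reads on genes, except IMX372 DSE001 with 70510681.

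Values are FPKM as deposited, which are read numbers scaled by gene length and by the library's reads on genes. Changes are on the log2(FPKM + 1) scale from limma, fitted across the 5459 genes that averaged 1 FPKM or more. The threshold for calling a gene was 0.05 after Benjamini-Hochberg adjustment over all of them. All 3 reported plasmid genes passed the filter on low values, with at least 674 reads in every library. In bulk RNA, the number of plasmids per cell and the RNA made per plasmid cannot be told apart.

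FLP1, the recombinase gene, was the one of the 3 that differed most from IMX372 in both single-locus strains. FLP1 read 26.3 and 29.0 FPKM in the IMX605 cultures and 47.7 and 37.7 FPKM in the IMX606 cultures, against 393 and 442 FPKM in those of IMX372. Both single-locus strains lay far below IMX372 with no overlap, and every IMX606 library lay above every IMX605 library. IMX605 averaged 27.7 ± 1.89 FPKM, IMX606 42.7 ± 7.04 FPKM and IMX372 418 ± 35.0 FPKM (SD, n = 2 each). In reads, FLP1 had 674 and 719 in IMX605, 1137 and 1025 in IMX606, and 35240 and 10749 in IMX372. Ranked by FPKM among all gene models, it stood at percentiles 33.1 to 52.2 in the 4 single-locus libraries, against percentiles 91.8 and 92.5 in IMX372.

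REP1, which encodes a plasmid partitioning protein, read 458 and 477 FPKM in IMX605, 746 and 728 FPKM in IMX606, and 472 and 494 FPKM in IMX372. IMX605 and IMX372 overlapped, and both IMX606 cultures were higher than all others. IMX605 averaged 467 ± 13.8 FPKM, IMX606 737 ± 13.0 FPKM and IMX372 483 ± 15.3 FPKM (SD, n = 2 each).

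REP2, which encodes the partner of Rep1, read 499 and 541 FPKM in IMX605, 901 and 784 FPKM in IMX606, and 441 and 443 FPKM in IMX372. The strains did not overlap, with IMX606 highest and IMX372 lowest. IMX605 averaged 520 ± 29.2 FPKM, IMX606 843 ± 82.5 FPKM and IMX372 442 ± 1.80 FPKM (SD, n = 2 each).

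REP1 and REP2 stood at percentile 92.46 or above of all gene models in every library.

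**Figure D1:**
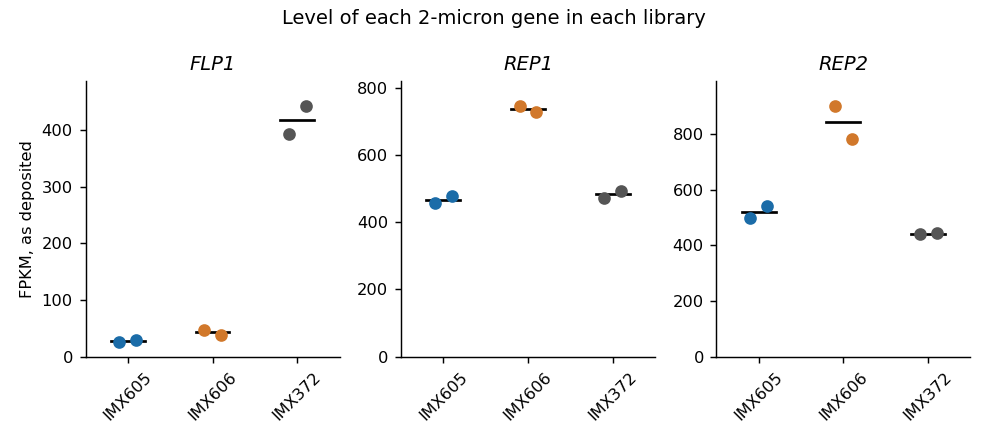
Level of FLP1, REP1 and REP2 in FPKM (vertical axes, starting at 0, one scale per gene) in IMX605, IMX606 and IMX372. Points are single libraries and lines are strain means. FLP1 is at 26.3 to 47.7 FPKM in the single-locus strains and at 393 and 442 FPKM in IMX372, while REP1 and REP2 are highest in IMX606.

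The order of the genes by level differed between the strains. In each single-locus library it was REP2, REP1 and then FLP1, with FLP1 far below the rest. In both IMX372 libraries it was REP1, REP2 and then FLP1. There, REP2 and FLP1 did not differ beyond the spread of FLP1, since IMX372 DSE002 read 443 FPKM for REP2 and 442 FPKM for FLP1.

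Ratios between genes within a library do not depend on the scaling between libraries. FLP1 amounted to 0.0550 and 0.0570 times the mean of REP1 and REP2 in IMX605 and to 0.0579 and 0.0499 times in IMX606, against 0.861 and 0.944 times in IMX372. The single-locus strains overlapped each other, and both lay below IMX372 by a ratio of 16.1 (IMX605) and 16.7 (IMX606). Exact two-sided permutation of the cultures gave p = 0.333 for each single-locus strain against IMX372, which is the smallest p that 2 cultures against 2 allow, and p = 1.0 for IMX605 against IMX606.

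Between REP2 and REP1 the ratio was 1.09 and 1.13 in IMX605, 1.21 and 1.08 in IMX606, and 0.933 and 0.897 in IMX372. The ratio was higher in every single-locus library than in either IMX372 library, by 1.22 times (IMX605) and 1.25 times (IMX606) between strain means, and IMX605 and IMX606 overlapped. The exact permutation p was 0.333 in both comparisons with IMX372.

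**Figure D2:**
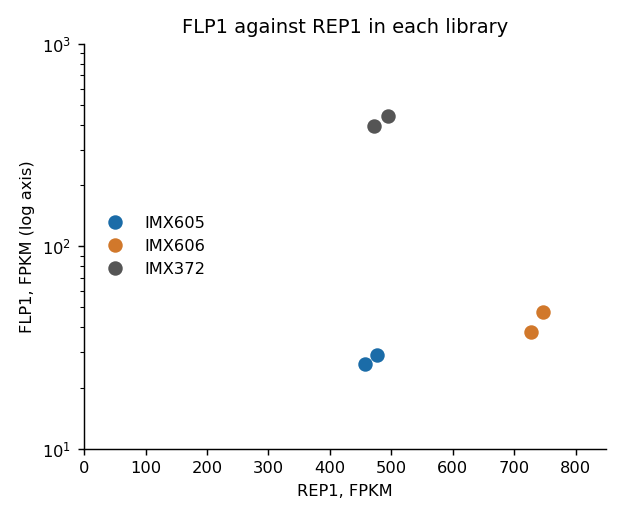
FLP1 (vertical, FPKM on a log axis) against REP1 (horizontal, FPKM), with one point per library coloured by strain. IMX605 and IMX372 share the REP1 range of 458 to 494 FPKM and are apart in FLP1, whereas IMX606 is apart from both in REP1.

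As a share of the FPKM summed over the 3 genes, IMX605 libraries had 2.72% ± 0.0656 FLP1 and IMX606 libraries 2.62% ± 0.268 FLP1, against 31.1% ± 1.40 FLP1 in IMX372 libraries (SD, n = 2 each). REP2 took 51.2% in IMX605, 51.9% in IMX606 and 32.9% in IMX372. The REP1 share was 46.1% in IMX605, 45.5% in IMX606 and 36.0% in IMX372. The shares of all 3 genes overlapped between the single-locus strains.

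**Figure D3:**
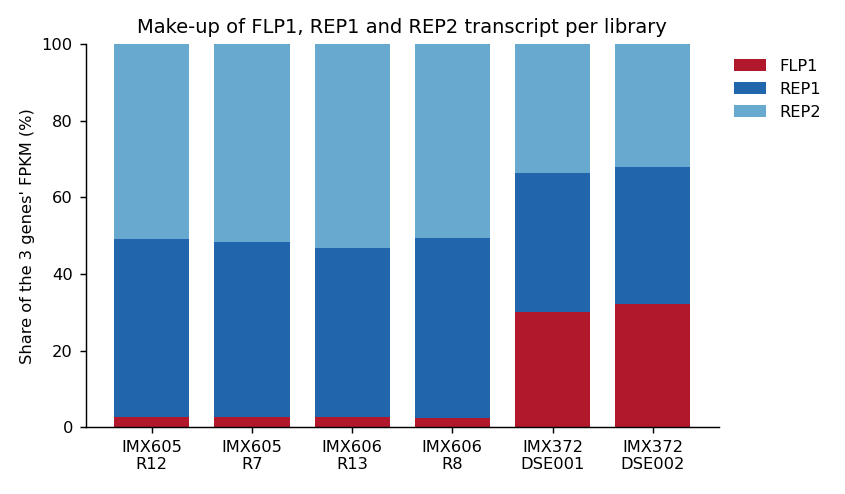
Share of each gene in the FPKM summed over FLP1, REP1 and REP2 (vertical axis, percent), one stacked bar per library, with IMX605 and IMX606 on the left and IMX372 on the right. FLP1 takes 2.43% to 2.81% in the single-locus libraries and 30.1% and 32.1% in IMX372.

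The sum of the 3 genes was 983 and 1047 FPKM in IMX605, 1695 and 1550 FPKM in IMX606, and 1306 and 1380 FPKM in IMX372. IMX606 was highest and IMX605 lowest, with no overlap. These genes took 0.0992% and 0.105% of the reads on genes in IMX605, 0.170% and 0.156% in IMX606, and 0.142% and 0.151% in IMX372. Without FLP1, IMX605 summed to 987 ± 43.0 FPKM, IMX606 to 1580 ± 95.5 FPKM and IMX372 to 925 ± 17.1 FPKM (SD, n = 2 each), so the order of IMX605 and IMX372 turned. Each of these sums gave an exact permutation p of 0.333, the smallest possible, in each comparison.

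In IMX605 against IMX372, the chromosome V locus against native loci, FLP1 fell, and REP1 and REP2 were not called. The FLP1 change was -3.87 (SE 0.13, 95% interval -4.15 to -3.58, limma adjusted p = 5.53e-09), a mean 15.1 times lower than in IMX372. That was the 9th lowest change of the 5459 genes tested. REP1 changed by -0.05 (95% interval -0.26 to 0.16, adjusted p = 0.729) and REP2 by 0.23 (0.0030 to 0.46, adjusted p = 0.114) by limma. With 1 of the 3 called, these genes compare with 30.0% of all genes called in either direction, and 2.03% of all genes were called lower by over 2-fold.

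In IMX606 against IMX372, the chromosome IX locus against native loci, FLP1 fell, and REP1 and REP2 rose. FLP1 changed by -3.27 (SE 0.13, 95% interval -3.55 to -2.98, limma adjusted p = 2.10e-08), a mean 9.79 times lower than in IMX372 and the 11th lowest change of all. REP2 rose by 0.93 (SE 0.10, adjusted p = 7.19e-05), to 1.91 times the IMX372 mean, and REP1 rose by 0.61 (SE 0.10, adjusted p = 0.000852), to 1.52 times, by limma. All 3 were called, where 23.9% of all genes were called in either direction, 11.1% higher, 12.8% lower and 1.91% lower by over 2-fold. This comparison shares its IMX372 libraries with the previous one.

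**Figure D4:**
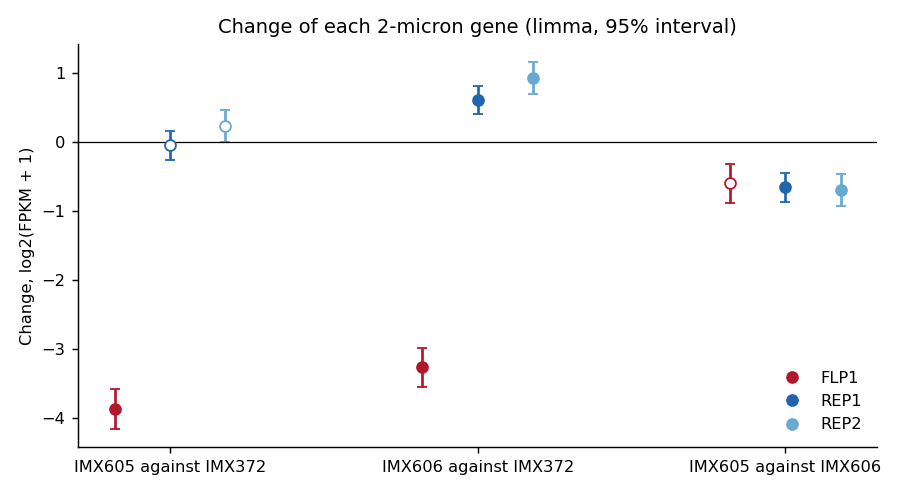
Change of FLP1, REP1 and REP2 on the log2(FPKM + 1) scale (vertical axis) in the 3 comparisons, with limma's 95% intervals. Filled points were called at an adjusted p under 0.05 and open points were not. FLP1 is at -3.87 and -3.27 against IMX372, and all 3 genes lie between -0.69 and -0.60 in IMX605 against IMX606.

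The FLP1 values against IMX372 touch on how the reads were assigned to strands. The labels name a stranded kit, but how the counting treated strand is not stated in the sources used here. Without strand, FLP1 reads could not be told apart from RNA running through FLP1 from REP1, whose end lies 363 bases away on the opposite strand, so the FLP1 level is uncertain. REP1 itself differed by -0.05 in IMX605 against IMX372 and by 0.61 in IMX606 against IMX372. The part of strand assignment in the FLP1 difference was not tested.

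In IMX605 against IMX606, the 2 positions of the single locus, FLP1, REP1 and REP2 were all lower in IMX605 by similar amounts. REP2 (-0.69, SE 0.10, adjusted p = 0.0160) and REP1 (-0.66, SE 0.10, adjusted p = 0.0135) fell by limma. FLP1 had a change of -0.60 (SE 0.13, 95% interval -0.89 to -0.31) that did not pass (adjusted p = 0.262, unadjusted p = 0.000721, limma). Its rank by p was the 15th of 5459 genes. The IMX605 means were 0.648 (FLP1), 0.634 (REP1) and 0.617 (REP2) times the IMX606 means. For each of the 3 genes, both IMX605 cultures lay below both IMX606 cultures.

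Few genes were called between the single-locus strains, 11 of 5459 or 0.202% (0.128% lower). REP1 and REP2 were among these 11. Their calls are close to the threshold. Both ended in 7 of 16 other settings, among them fits without IMX605 R12 (adjusted p = 0.109 and 0.128) or without IMX605 R7 (0.0702 and 0.0522), fits without either IMX372 library and the fit of IMX605 and IMX606 only, where the changes stayed between -0.75 and -0.63. FLP1 was called without IMX606 R8 (-0.77, adjusted p = 0.0117). The number of genes called was 97 without IMX606 R13, 17 without IMX606 R8, 7 without IMX605 R7 and 6 without either IMX372 library.

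**Figure D5:**
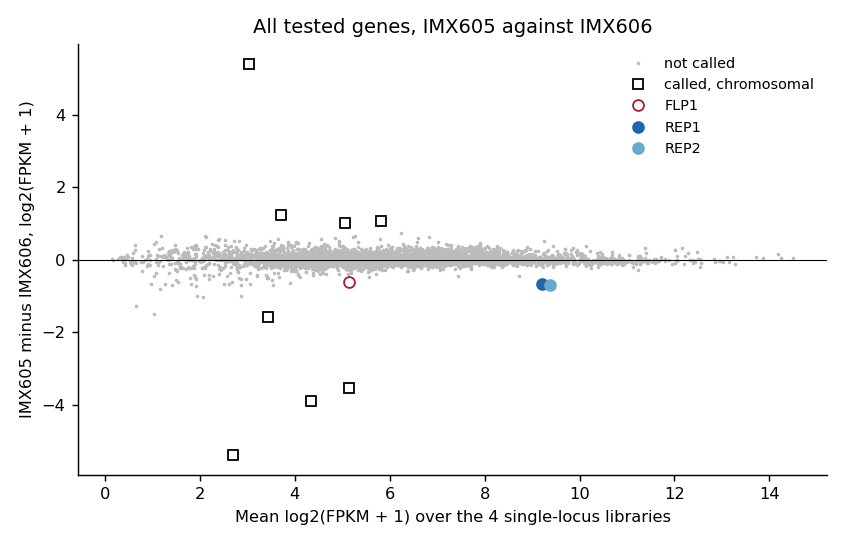
Change in IMX605 minus IMX606 on the log2(FPKM + 1) scale (vertical) against mean level over the 4 single-locus libraries (horizontal, log2(FPKM + 1)) for the tested genes. Grey dots were not called, squares are called chromosomal gene models, and circles are FLP1, REP1 and REP2, filled where called. The circles lie together at -0.69 to -0.60, below most genes.

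Over the 6 libraries, the log2 levels of REP1 and REP2 followed each other, with Pearson's r of 0.95. FLP1 had r of -0.30 with REP1 and -0.56 with REP2. These describe 6 libraries of 3 strains. The tested genes most like FLP1 were RPB3 (r = 0.997), YKL070W (0.996) and SUR2 (0.996). RPB3, an RNA polymerase II subunit gene, spanned only 135 to 179 FPKM, and SUR2, a sphingolipid hydroxylase gene, 59.9 to 95.04 FPKM, so the likeness is one of order and spacing, not of size. YKL070W spanned 0.974 to 40.9 FPKM. These genes were picked from all tested genes for their high r. FLP1 mainly set IMX372 apart from the single-locus strains, so r with FLP1 mostly follows that split. The genes most like REP1 were YDL109C (0.954), YJR056C (0.950) and REP2 (0.95), and those most like REP2 were YDL109C (0.994), RCK1 (0.981) and ATG4 (0.957). YDL109C spanned 8.19 to 10.5 FPKM and YJR056C 39.0 to 42.7 FPKM. RCK1 spanned 1.36 to 1.66 FPKM and ATG4, an autophagy protease gene, 9.73 to 12.0 FPKM. These chromosomal genes were likewise picked for their high r. REP2 itself spanned 441 to 901 FPKM, so here too the likeness is one of order and spacing, not of size.

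Host genes with known ties to the plasmid were compared in 3 lists. Their calls are read against the 30.0% of all genes called in IMX605 against IMX372 and the 23.9% in IMX606 against IMX372. The plasmid partitioning list holds 17 genes for cohesin, condensin, the RSC chromatin remodeller, the kinesin KIP1, microtubule binding proteins and the centromeric histone CSE4. In IMX605 against IMX372, 1 of the 17 rose and 0 fell (5.88% called, against 30.0% of all genes), with a median change of -0.10 beside -0.03 over all genes. In IMX606 against IMX372, again 1 rose and 0 fell (5.88%, against 23.9%), with a median of -0.12 beside -0.06. The called gene was YCS4, a condensin subunit gene, at 36.9 FPKM in IMX605 and 33.4 FPKM in IMX606, against 16.4 FPKM in IMX372 (changes of 1.12, adjusted p = 8.33e-05, and 0.98, adjusted p = 0.000283, limma). Cohesin genes and KIP1 were not called. Without IMX606 R13, 2 of the 17 were called in IMX606 against IMX372.

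The SUMO list holds 11 genes of SUMO conjugation and removal and of the nuclear pore sites that hold the SUMO protease Ulp1, and defects in this pathway are known to raise plasmid copy number. Of these, 10 had a value, and SMT3 was not analysed here. In IMX605 against IMX372, 1 of the 10 rose and 1 fell (20% called, against 30.0% of all genes), with a median of 0.10. With only 10 genes, the counts in either comparison with IMX372 are no result about this list. UBC9, the SUMO-conjugating enzyme gene, read 145 FPKM in IMX605, against 91.0 FPKM in IMX372 (0.67, adjusted p = 0.0122, limma). NUP60, a nuclear pore basket gene, read 63.3 FPKM in IMX605, against 90.9 FPKM in IMX372 (-0.51, adjusted p = 0.00454, limma). In IMX606 against IMX372, 0 of the 10 rose and 1 fell, where 23.9% of all genes were called, with a median of 0.10, and the called gene was NUP60 (66.3 FPKM in IMX606 against 90.9 FPKM in IMX372, -0.45, adjusted p = 0.0119, limma). Of the 10, 1 was called in IMX605 without IMX605 R12 or without IMX372 DSE001, and in IMX606 the count was 3 without IMX606 R8 and 0 without IMX372 DSE002.

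The origin licensing list holds 14 genes of the origin recognition complex, its loading factors and the MCM helicase, which also act at the plasmid's origin. In IMX605 against IMX372, 1 of the 14 rose and 3 fell, with a median of -0.08. That is 28.6% called, near the 30.0% of all genes, so the count is no result about this list. TAH11, a helicase loading factor gene, rose by 0.47 (adjusted p = 0.0192), while ORC5 (-0.45, adjusted p = 0.0284), ORC6 (-0.35, adjusted p = 0.0365) and MCM5 (-0.36, adjusted p = 0.0407) fell by limma. In IMX606 against IMX372, TAH11 rose (0.40, adjusted p = 0.0438) and ORC6 fell (-0.37, adjusted p = 0.0380), with a median of -0.07 and 14.3% called, against 23.9% of all genes. These origin licensing calls ended in both comparisons without IMX605 R12, without IMX605 R7 or without IMX372 DSE002. In IMX606 against IMX372 they also ended without IMX606 R13. In each of these fits, fewer of all genes were called too.

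In IMX605 against IMX606, 0 of the 41 host genes tested were called by limma or by voom on recovered reads, and 0 had an unadjusted p under 0.05. Over all 5459 genes, 0.202% were called and 199 had an unadjusted p under 0.05, so few or none would be called in any list of this size. The medians of the 3 lists in that comparison were 0.03 (partitioning), 0.04 (SUMO) and 0.0021 (origin licensing), beside 0.02 over all genes.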

How the data were processed

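Polyadenylated RNA of 6 libraries, 2 cultures of each of 3 strains, was measured. Hot-phenol RNA and the TruSeq stranded mRNA kit were used, per the labels' protocols. DESeq2, edgeR, featureCounts, SAMtools and STAR 2.5.4a appear in the submitters' processing notes without their roles. The authors deposited 1 table of FPKM values, used as they stand. Each value times gene length was a whole multiple of 1 step per library (100% of values, tolerance 0.01), which gave the reads. A floor of 3 reads at 1 kb was 0.0426 to 0.160 FPKM, which covers counting error only.

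Genes averaging 1 FPKM or more (5459) entered a limma 3.58.1 fit (R 4.3.3) of log2(FPKM + 1). The fit had a term per strain and an intensity trend. It was first run on simulated reads, with the same scatter set for every gene and a small part of the genes changed. That setting differs from these data, so no error rate here follows from it. The table held FPKM, so the planned count test was not run. Ratios and sums were compared by exact permutation (scipy 1.17.1). Duplicates differed beyond sampling noise (chi-square per degree of freedom 18.6 to 42.4). The limma p-values rest on a spread between duplicates that was pooled over the 3 strains and drawn towards that of genes of like level. The exact permutation p-values do not measure that spread. Symbols came from RefSeq R64 by systematic name (5550 of 5625 matched), and plasmid names from the table.

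Membership rests on systematic names, and the members and lists were chosen with earlier results of these data known. The rule named the plasmid genes, of which 1 is not reported here, the 3 genes most correlated with each, and up to 4 called members per host list with the smallest adjusted p. The sum without FLP1 was added after the FLP1 values were seen. Other settings tried changed the pseudocount, filter, scaling, trend, groups fitted or test (voom), or left out a library. Plasmid sequence was not used here.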

Additional observations from a re-analysis of the deposited data

How the results depend on the processing

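The calls of FLP1 in both comparisons with IMX372, and of REP1 and REP2 in IMX606 against IMX372, held in all 16 other settings (FLP1 -3.95 to -3.69 and -3.43 to -3.10, REP1 0.58 to 0.66, REP2 0.83 to 1.03 on the log2 scale). REP1 and REP2 were called in none of them in IMX605 against IMX372. In IMX605 against IMX606 the changes of REP1 (-0.66) and REP2 (-0.69) were not called without the filter (adjusted p = 0.0652 and 0.154), without limma's trend (0.0639 and 0.0746) and with only the 2 groups (0.0767 and 0.136), where their sizes were as before. With libraries left out they ranged from -0.69 to -0.63 and -0.79 to -0.59, and FLP1 from -0.77 to -0.43.

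With libraries left out, the genes called numbered 802 (without IMX372 DSE002) to 1942 in IMX605 against IMX372, with 812 without IMX605 R7 and 1031 without IMX605 R12, 597 (without IMX372 DSE002) to 1256 in IMX606 against IMX372 and 6 to 97 in IMX605 against IMX606, where 5 were called without the filter and 6 with only the 2 groups. The partitioning list in IMX605 against IMX372 had 2 called with equal sums and with voom. With libraries left out it had 1 called each time there and 1 to 2 in IMX606, the SUMO list 1 to 3 and 0 to 3, and the origin licensing list 0 to 4 and 0 to 2. With median-of-ratios scaling the IMX372 sum of REP1 and REP2 was 906 FPKM. Of recovered reads in place of FPKM, FLP1 took 3.44% in IMX605, 3.32% in IMX606 and 36.2% in IMX372 of the total of the 3 genes. Fewer libraries or other genes enter several of these fits, and otherwise the cause was not tested. With 2 cultures a strain, small differences could not be resolved.

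No paired analysis was possible because the table's columns carry no replicate number of the labels.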
